A study of Mus musculus with 20 samples.

Results

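The genes described here are the nuclear genes named for respiratory complex I. They are the rows of the deposited table whose symbol begins with Nduf, without the 3 rows whose names end in -ps, and with at least 1 CPM (counts scaled to a common library size) in at least 5 of the 20 libraries. Of 53 rows named Nduf, 49 met this rule, out of 21844 genes in the table and 14361 that passed the same limit. The only other row, Ndufa11b, stayed under the limit, and all 49 members had at least 1 CPM in all 20 libraries. Sorted by role, 37 of the 49 encode subunits of complex I, 8 are assembly factors (Ndufaf1 to Ndufaf8), 2 carry the family name only (Ndufa4 and Ndufa4l2), and 2 are close copies of subunit genes (Ndufb4c and Ndufs6b).

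The study sequenced RNA from mouse leg muscle in 4 groups of 5 libraries. All mice were Cre+:iMSBmal1 fl/fl, that is, with a floxed Bmal1 gene and an inducible, muscle-specific Cre. Vehicle mice kept the gene, and those labelled iMSBmal1KO are its muscle-specific knockout. Each genotype was kept sedentary or given 6 weeks of daily treadmill training. The labels put collection at 48 hours and the design text at 47 hours after the last bout. They also name the gastrocnemius in one field and the tibialis anterior in another, and the age of the mice and the inducing agent's name and dose are not given in the sources used here. Within the pairs labelled knockout trained 1 and 4, and 3 and 5, scatter over counting noise changed from scarce to abundant genes by a ratio of 1.25 (from 1.898 to 2.379 times that noise) and 0.873 (from 2.011 to 1.755), against at least 2.31 in every other pair of libraries. Each of these pairs was therefore summed and counted as 1 sample, which left 18 samples and 3 in that group. Nothing in the labels says whether samples came from separate animals, so p-values measure only the spread between these samples.

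Complex I, the NADH:ubiquinone oxidoreductase, is the largest enzyme of the mitochondrial respiratory chain. It takes electrons from NADH, passes them along iron-sulfur clusters to ubiquinone, and pumps protons across the inner membrane. Its N module binds NADH, its Q module reduces ubiquinone, and the proximal and distal parts of its membrane arm hold the pumps. The core subunits are shared with bacteria, some encoded in the nucleus and some in mitochondrial DNA. The remaining subunits are accessory, and assembly factors help to build the enzyme without staying in it. Oxidative muscle fibres hold much of it, and endurance training is known to raise the mitochondrial content of muscle. Bmal1 is the transcription factor that, with Clock, drives the circadian clock through E-box sequences.

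Library totals lay between 10610333 and 19153527 estimated counts. Values are given as CPM after scaling with edgeR's trimmed mean of M-values (TMM). The targeted gene, listed as Arntl, was not lower in libraries labelled knockout: unscaled CPM lay between 5.68 and 7.93 in sedentary vehicle, 10.96 and 18.9 in sedentary knockout, 6.32 and 132 in trained vehicle, and 7.91 and 17.7 in trained knockout libraries. The deleted part of the gene is not given in the sources used here and the counts cover the whole gene, so they do not check the deletion, and every direction below is drawn from the labels. The 132 is that of trained vehicle sample 2. In abundant genes this sample's scatter was 171 to 233.5 times counting noise with every other library, and at most 88.2 in pairs without it. Trained vehicle sample 1 stands apart in several members described here. Muscle fibre genes (Acta1, Ckm, Myh4, Myh1, Mb and Mylpf) summed to between 40282 (trained vehicle sample 2) and 76188 CPM. The highest sum of any list of markers of other cells was 3128 CPM, for blood in trained knockout sample 2. These sums do not measure the share of RNA that each kind of cell gave. In bulk muscle, fewer cells of a type and less RNA per cell cannot be told apart.

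Per kilobase of transcript, which allows levels to be compared between genes, Ndufa4 was the highest member, with a mean level over the 18 samples of 1294 CPM per kb. It carries the complex I name but is a subunit of cytochrome c oxidase. Among true subunits, Ndufb9 (537 CPM per kb), Ndufb8 (424) and Ndufb10 (332) of the distal membrane arm were highest. The row Ndufb4c reached 453 CPM per kb, the third highest of all members, but it shares its sequence with Ndufb4 (below). The lowest levels were those of Ndufa4l2 (6.59 CPM per kb), a paralog of Ndufa4 known to be induced by hypoxia, Ndufaf3 (7.19) and Ndufaf7 (9.06). The mean levels of the 8 assembly factors ran up to the 23.3 CPM per kb of Ndufaf1 and all lay below that of each of the 37 subunits, the lowest of which was Ndufab1 at 38.8. Ndufab1 has transcripts of 755 and 3479 nt, so its place among the subunits depends on the length taken. Ndufab1 is the mitochondrial acyl carrier protein, which also serves fatty acid synthesis and iron-sulfur cluster formation.

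**Figure D1:**
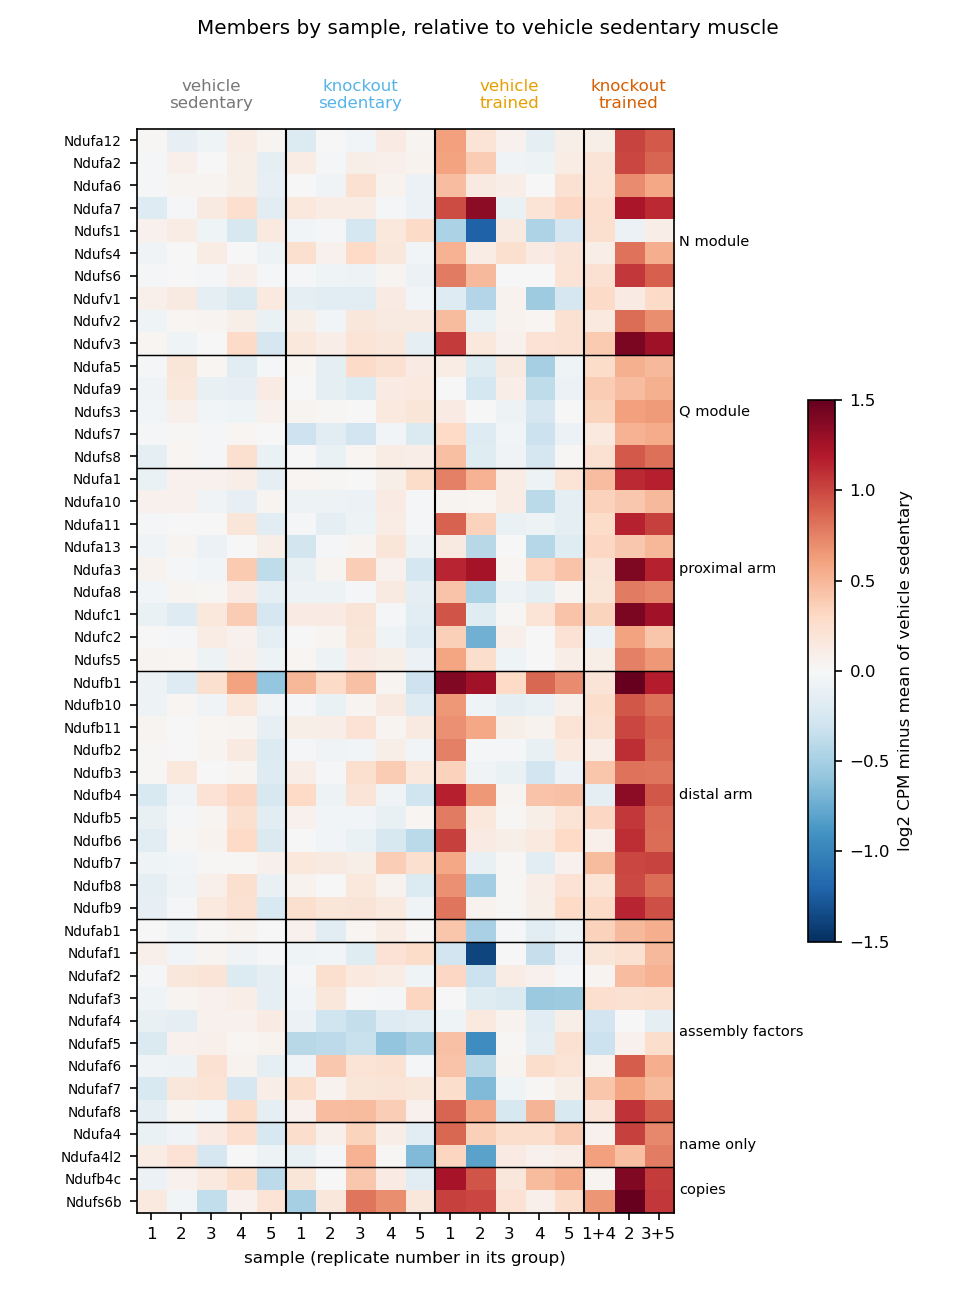
Each row is 1 of 48 members, sorted by role, and each column a sample of the 4 groups; colour gives log2 CPM minus the log2 mean of sedentary vehicle muscle, from blue (lower) to red (higher). Trained knockout samples 2 and 3+5 are red in nearly every row, the summed pair 1+4 less so. Trained vehicle sample 1 has the highest median of the vehicle samples, 0.53. It is red in most rows but blue for Ndufs1, Ndufaf1 and Ndufv1, and faintly so for Ndufaf4.

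Summed over the 49 members, the level was 6021 to 6782 CPM in sedentary vehicle muscle and 6253 to 6783 CPM in sedentary knockout muscle, so these ranges nearly coincided. Trained vehicle samples 2 to 5 gave 6203 to 6971 CPM, and sample 1 gave 9236. The trained knockout samples gave 7410 (the summed pair 1 and 4), 11387 (sample 2) and 10452 (the summed pair 3 and 5). The highest of the 18 samples was trained knockout sample 2 for 32 members and the summed pair 3 and 5 for 11 more. By sample, 49 and 48 members respectively lay above their own mean over the 18 samples in these, 30 did so in the pair 1 and 4, and 43 did so in trained vehicle sample 1.

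The knockout effect in sedentary muscle asks what loss of Bmal1 did to these genes without training. 0 of the 49 members differed at an adjusted p under 0.05 (edgeR quasi-likelihood test, Benjamini-Hochberg over all 14361 tested genes), where 2.33% of all tested genes did, 1.02% higher and 1.31% lower, and DESeq2 called 0 as well. At an unadjusted p under 0.05, 2 members were lower and 0 higher, against 5.18% and 4.64% of all genes. The median log2 change was 0.03 over the members and 0.01 over all tested genes, and 32 members lay above 0.

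Ndufaf5, the assembly factor that hydroxylates an arginine of Ndufs7, had the lowest log2 change. Its level was 15.4, 18.6, 18.9, 18.1 and 18.4 CPM in sedentary vehicle and 13.4, 13.6, 14.2, 11.8 and 12.6 CPM in sedentary knockout muscle. The 2 groups did not overlap, with a log2 difference of -0.45 (SE 0.18) that missed the threshold in edgeR (unadjusted p = 0.0247, adjusted p = 0.360). It did pass in a fit of the 2 sedentary groups alone (adjusted p = 0.00411) and in the fit without trained vehicle sample 2 (adjusted p = 0.0294), a sample in neither group. Ndufs7 itself, which carries the last iron-sulfur cluster before ubiquinone, stood at 145, 149, 144, 149.5 and 146 CPM in vehicle and 118, 130.1, 120.1, 142 and 126 CPM in knockout samples. These ranges did not overlap either, at a log2 difference of -0.20 (SE 0.11, adjusted p = 0.640 in edgeR). Ndufb7, an accessory subunit on the outer face of the membrane arm, was the only member with all 5 knockout samples above all 5 vehicle samples (105.98 to 129 against 95.4 to 105.72 CPM, log2 difference 0.20, SE 0.14). Such separation was found in 3.93% of all tested genes for higher and 4.77% for lower, against 1 and 2 of the 49 members. Ndufaf4, which acts with Ndufaf3 early in assembly, had a log2 difference of -0.22 (SE 0.09), and the highest values were 0.32 for Ndufs6b (SE 0.27) and 0.29 for Ndufaf8 (SE 0.21), the partner of Ndufaf5. None of these 3 passed.

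In trained muscle the same comparison gave a different picture. 11 of the 49 members were higher in trained knockout than in trained vehicle muscle and 0 were lower at an adjusted p under 0.05 (edgeR), against 3.29% of all tested genes called, 1.99% higher and 1.3% lower. The median log2 difference was 0.50 over the members and -0.03 over all tested genes, and 48 members lay above 0. At an unadjusted p under 0.05, 35 members were higher and 0 lower, against 8.35% of all genes higher and 8.83% lower. In 11 members every one of the 3 knockout samples lay above all 5 vehicle samples, which held for 5.08% of all tested genes, and in 0 every one lay below (3.78%). The called members were 5 of 6 Q module genes, 1 of 10 N module genes, 2 of 9 of the proximal arm, 2 of 11 of the distal arm and 1 of 8 assembly factors. By another division, 4 of the 7 nuclear core subunits were among them (Ndufs3, Ndufs7, Ndufs8 and Ndufv1).

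**Figure D2:**
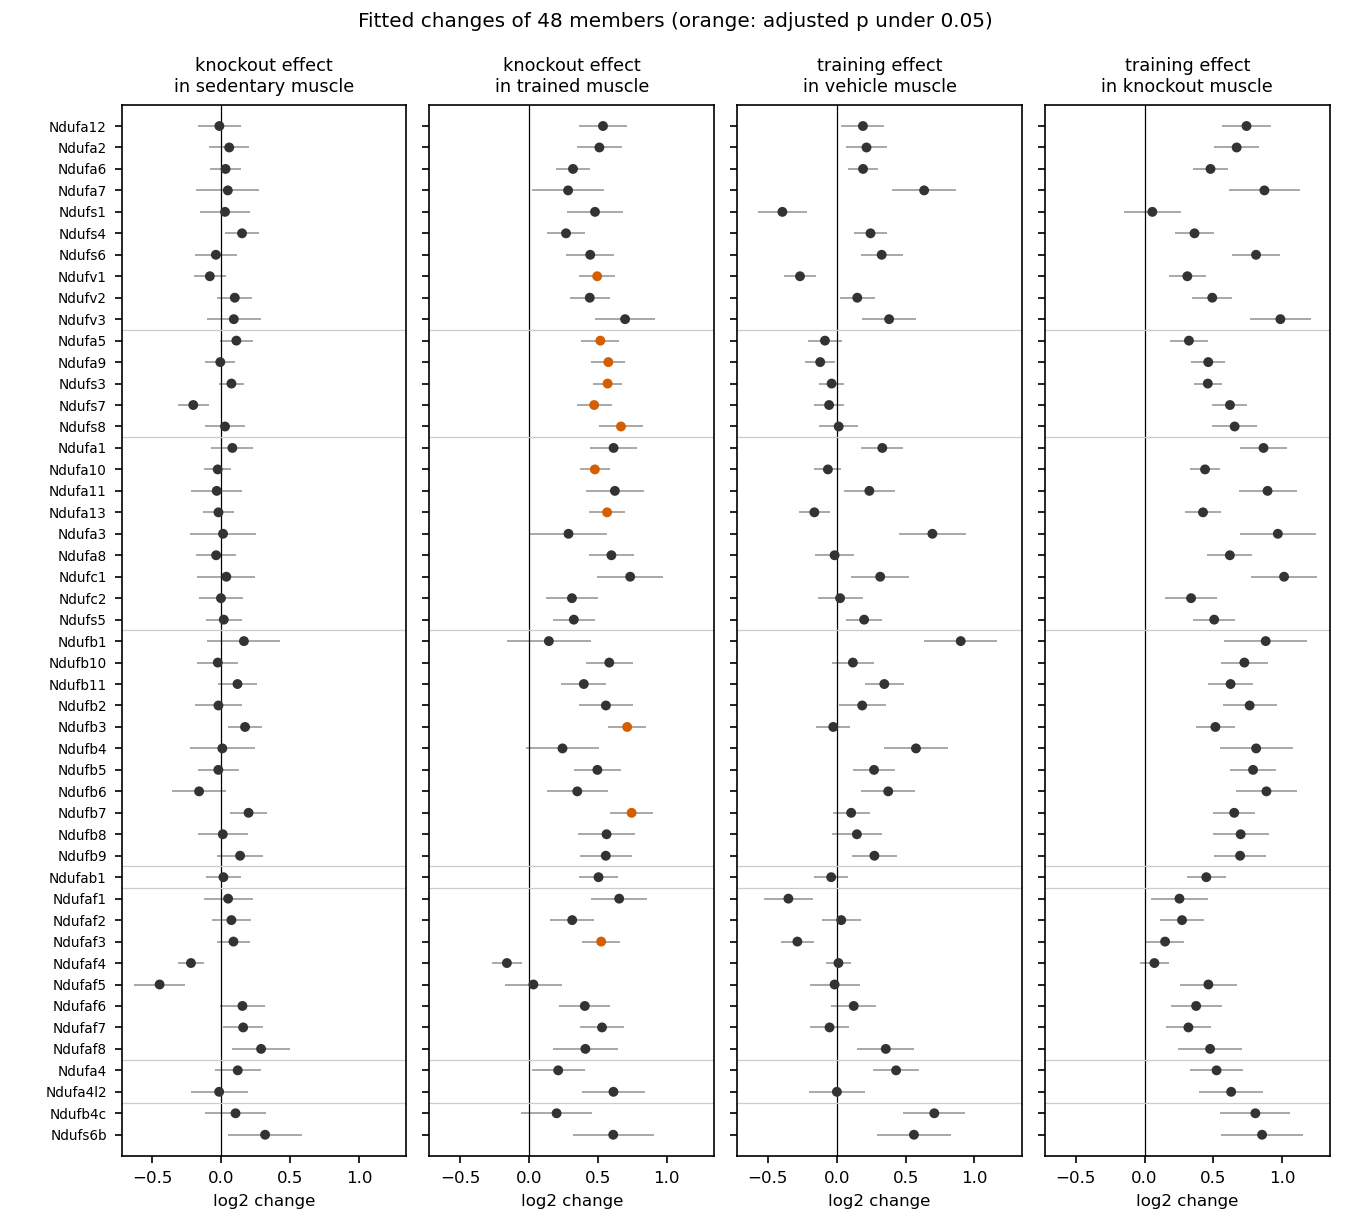
Fitted log2 change (point) and its standard error (bar) of 48 members in the 4 comparisons, sorted by role; orange points passed an adjusted p of 0.05. The points lie around 0 in the first panel, 47 of 48 lie above 0 in the second, and all 48 do in the fourth, where 0 passed.

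The Q module, which receives electrons from the N module and hands them to ubiquinone, held the lowest adjusted p. Ndufs3, a core subunit of this module that binds no cofactor, stood at 183, 168, 160.3, 141 and 169.9 CPM in trained vehicle and 212, 257 and 263 CPM in trained knockout samples. The sedentary samples lay at 164, 178, 165, 161 and 176 CPM with vehicle and 173, 170.2, 168, 186 and 191 CPM with knockout. The 3 trained knockout samples were thus above all 15 others, and the trained difference was 0.57 on the log2 scale (SE 0.10, adjusted p = 0.00395 in edgeR), a fitted ratio of 1.49. Ndufa9, an accessory subunit that binds a nucleotide close to the ubiquinone site, read 152, 126, 161, 116 and 142 CPM in vehicle and 197, 208 and 219 CPM in knockout samples after training. It too showed no overlap, at a log2 difference of 0.58 (SE 0.12, adjusted p = 0.0140 in edgeR).

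Ndufs8 and Ndufs7, the core subunits that carry the iron-sulfur clusters leading to ubiquinone, were called although their groups overlapped. Ndufs8 stood at 115, 73.8, 81.0, 70.5 and 85.2 CPM in trained vehicle and 98.2, 159 and 149 CPM in trained knockout samples (log2 difference 0.67, SE 0.16, adjusted p = 0.0280 in edgeR). Vehicle sample 1 lay above the summed knockout pair 1 and 4. The same order was seen for Ndufs7, at 179.8, 128, 142, 117 and 138 CPM against 162, 210.4 and 215 CPM (log2 difference 0.47, SE 0.13, adjusted p = 0.0492 in edgeR). Ndufa5, an accessory subunit of the module, was at 69.1, 56.4, 70.0, 45.3 and 61.3 CPM with vehicle and 77.0, 92.6 and 89.9 CPM with knockout, without overlap (log2 difference 0.52, SE 0.14, adjusted p = 0.0474 in edgeR).

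**Figure D3:**
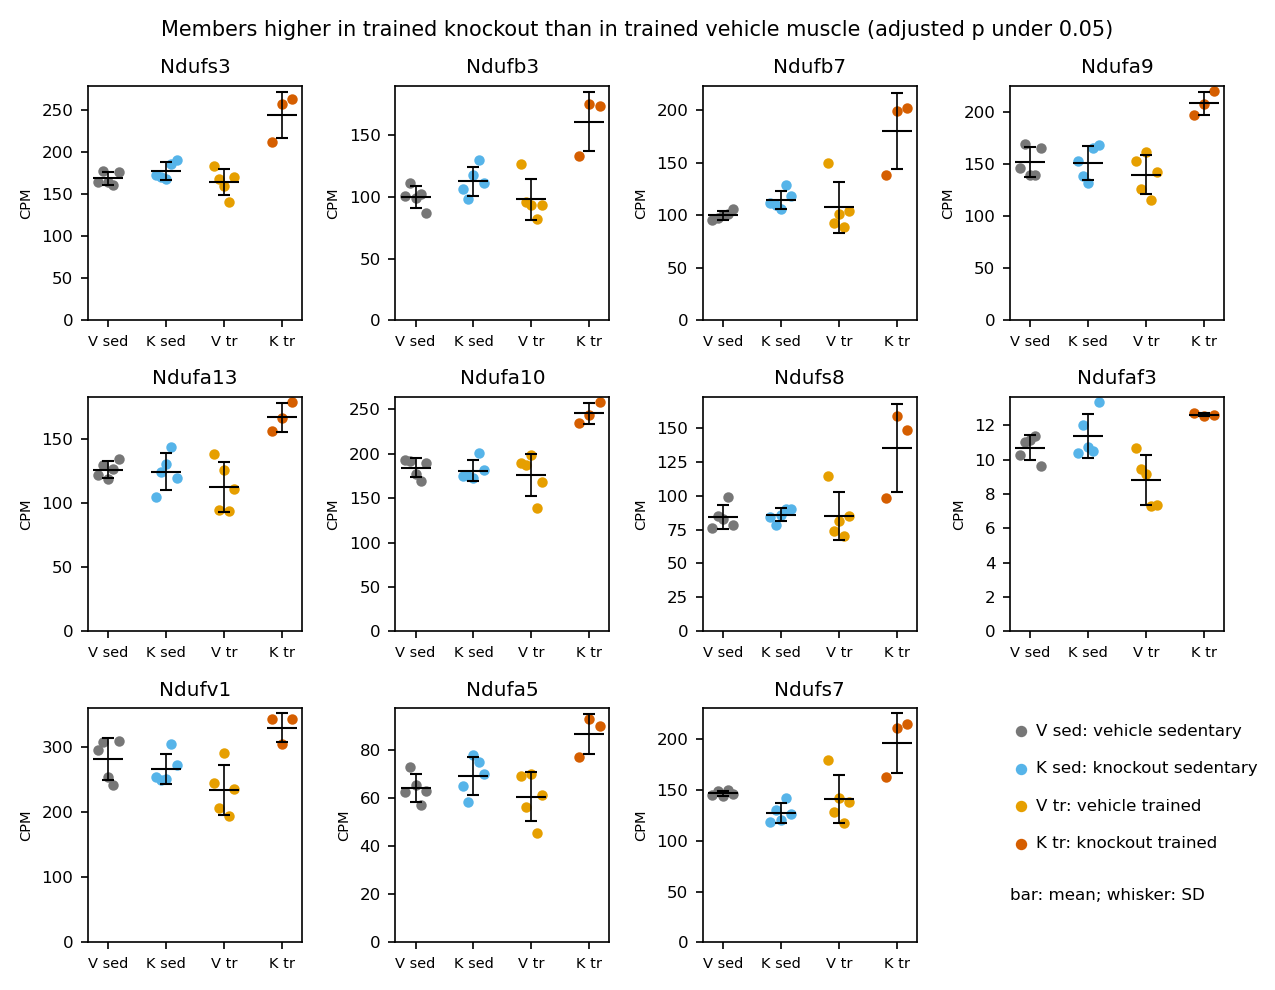
CPM of the 11 members called in the trained comparison, 1 point for each sample in the 4 groups, with the mean (bar) and SD (whisker); each axis starts at 0. The trained knockout points lie above the trained vehicle points in 8 panels, and overlap with vehicle sample 1 in those of Ndufb7, Ndufs8 and Ndufs7.

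In the N module, Ndufv1 was the only called gene of 10. It encodes the core subunit that binds NADH and the flavin, and it read 244, 206, 290.4, 194 and 234 CPM in trained vehicle against 343, 304 and 342 CPM in trained knockout samples (log2 difference 0.50, SE 0.13, adjusted p = 0.0465 in edgeR). In sedentary vehicle muscle Ndufv1 stood at 295, 307, 254, 241 and 309 CPM, so its range there reached that of the trained knockout samples. The other 2 core subunits of the module did not pass: Ndufv2, with an iron-sulfur cluster beside the flavin, differed by 0.44 (SE 0.14, adjusted p = 0.112) and Ndufs1, with most of the module's clusters, by 0.48 (SE 0.21, adjusted p = 0.235, both in edgeR). Ndufs1 read 222, 133, 339, 224 and 259 CPM in trained vehicle and 364, 289.8 and 331 CPM in trained knockout samples, against 260.3 to 341 CPM in sedentary vehicle muscle. Thus 4 of 5 trained vehicle samples lay below the sedentary vehicle range, and 1 of 3 trained knockout samples lay above it. All 10 genes of the module had log2 differences above 0, from 0.27 (Ndufs4) to 0.70 (Ndufv3), and 8 had an unadjusted p under 0.05.

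In the membrane arm 4 of 20 genes were called, and all 20 had log2 differences above 0. Ndufb3 of the distal arm stood at 127, 96.0, 93.2, 81.9 and 93.5 CPM in trained vehicle and 133, 176 and 174 CPM in trained knockout samples, without overlap (log2 difference 0.71, SE 0.14, adjusted p = 0.00705 in edgeR). Ndufb7 had the highest log2 difference of the 49 members, 0.75 (SE 0.15, adjusted p = 0.0103 in edgeR), from 149.9, 92.8, 102, 89.2 and 104 CPM against 138, 199.8 and 203 CPM, where vehicle sample 1 lay above the lowest knockout sample. In the proximal arm, Ndufa13, also known as GRIM-19, read 138, 94.7, 126, 94.0 and 111 CPM in vehicle and 156, 167 and 179 CPM in knockout samples (log2 difference 0.57, SE 0.13, adjusted p = 0.0213 in edgeR). Ndufa10, an accessory subunit with the fold of a nucleoside kinase, read 189, 187, 198, 139 and 168 and 235, 244 and 258 CPM (log2 difference 0.48, SE 0.11, adjusted p = 0.0231 in edgeR). Neither of these proximal genes overlapped between the groups. Ndufc1 had the second highest log2 difference, 0.73, but with an SE of 0.24 it did not pass (adjusted p = 0.110 in edgeR). The lowest among subunits was Ndufb1, at 0.14 (SE 0.30), with vehicle samples spread from 102 to 217 CPM. The acyl carrier Ndufab1 lay just outside the threshold, at 0.50 (SE 0.14, adjusted p = 0.0589 in edgeR).

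Among the 8 assembly factors Ndufaf3, a partner of the Q module during assembly, was called: it read 10.7, 9.46, 9.18, 7.29 and 7.36 CPM in trained vehicle and 12.7, 12.6 and 12.6 CPM in trained knockout samples (log2 difference 0.52, SE 0.14, adjusted p = 0.0410 in edgeR). Its sedentary vehicle samples, at 9.66 to 11.4 CPM, lay below the trained knockout samples and overlapped with trained vehicle. Sedentary knockout sample 5 lay above all 3 trained knockout samples, at 0.32 against 0.23 to 0.25 in log2 relative to sedentary vehicle muscle. Ndufaf1, which works with Acad9, Ecsit and Tmem126b on the membrane arm, and Ndufaf7, a protein methyltransferase, did not overlap between the groups but did not pass (log2 differences 0.65, SE 0.20, and 0.53, SE 0.16). Ndufaf2, which joins late with the N module, differed by 0.31 (SE 0.16). Ndufaf6 and Ndufaf8 differed by 0.41 (SE 0.19) and 0.41 (SE 0.24). Ndufaf5 was at 0.03 (SE 0.21), and Ndufaf4 was the only member of 49 below 0, at -0.16 (SE 0.11). Of 11 further assembly factors without the Nduf name, 10 were in the table: 1 of them, Tmem70, was higher and 0 were lower in edgeR (log2 difference 0.51, adjusted p = 0.0341), and their median was 0.28.

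Beyond the members, the 7 complex I subunits encoded in mitochondrial DNA (mt-Nd1 to mt-Nd6 and mt-Nd4l) had log2 differences from 0.03 to 0.33 in trained muscle, with a median of 0.08. 0 of the 7 passed, adjusted or not. Of the 46 nuclear genes of complexes II to V that matched fixed symbols, 15 were called higher and 0 lower. Among all tested genes 1.99% were called higher and 1.3% lower. The median of the 46 was 0.48, and 45 lay above 0. Higher levels were thus not particular to complex I, of whose 49 members 11 were called.

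The count of 11 rests on the shared spread of 4 groups and on single samples. Fitted on the 2 trained groups alone, 0 of 49 passed (smallest adjusted p 0.283), with a median of 0.49, and it was 1 (Ndufs3) without the summed knockout pair 3 and 5, 3 (Ndufs3, Ndufb3 and Ndufa9) without knockout sample 2, 23 without the summed pair 1 and 4, 27 without vehicle sample 1, 18 without vehicle sample 2 and 5 without vehicle sample 4 or 5. Leaving out 1 sedentary sample gave 7 to 10. The shares of all tested genes called in these fits are not given here, so these counts do not set the members apart from other genes.

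Promoter sequence is shown here because the knocked-out factor acts through a known DNA sequence and because many members were high in the same samples. RefSeq sequences of 250 bases before and 50 after the start site (build GRCm38.p6) matched 41 of the 49 members by symbol. An exact E-box (CACGTG, its own reverse complement) was found in 2 of the 41, Ndufv1 and Ndufa7, which is 4.88%, against 7.15% of all 32851 such sequences and 11.6% of the matched tested genes. The NRF1 site in its palindromic form was in 3 members (Ndufa11, Ndufaf4 and Ndufaf5), or 7.32%, against 0.971% of all sequences and 2.29% of the tested genes. The cyclic AMP response element TGACGTCA was in 3 (Ndufa10, Ndufa11 and Ndufb2), or 7.32%, against 1.79% and 3.42%. The element TNAAGGTCA of estrogen-related receptors, read on both strands, was in 1 (Ndufb4), or 2.44%, against 1.28% and 0.875%. CCAAT, read on both strands, was in 14, or 34.1%, against 37.4% and 42.6%. No letters of these motifs overlapped in the sequences shown, and a match is a description of letters, not of binding.

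The 250 bases before the start are given 5′ to 3′ on the gene's strand, in lower case with motif matches in capitals. Ndufv1 is shown for its E-box, which starts 169 bases before the start site and belongs to a called gene (chr19:4012756-4013005, minus strand). Ndufs3 is shown because it had the lowest adjusted p and none of the 5 motifs in these bases (chr2:90904722-90904971, minus strand). Ndufb3, the next in that order, holds an inverted CCAAT (chr1:58586147-58586396, plus strand). Ndufa11, not called, holds both the cyclic AMP response element and the NRF1 site (chr17:56717512-56717761, plus strand). Ndufb4, not called, holds an inverted CCAAT and the receptor element (chr16:37654369-37654618, minus strand).
Ndufv1: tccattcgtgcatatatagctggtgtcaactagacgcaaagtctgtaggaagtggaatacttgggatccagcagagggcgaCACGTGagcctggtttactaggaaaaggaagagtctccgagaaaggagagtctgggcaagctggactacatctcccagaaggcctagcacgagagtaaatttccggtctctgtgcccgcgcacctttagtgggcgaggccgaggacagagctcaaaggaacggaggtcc
Ndufs3: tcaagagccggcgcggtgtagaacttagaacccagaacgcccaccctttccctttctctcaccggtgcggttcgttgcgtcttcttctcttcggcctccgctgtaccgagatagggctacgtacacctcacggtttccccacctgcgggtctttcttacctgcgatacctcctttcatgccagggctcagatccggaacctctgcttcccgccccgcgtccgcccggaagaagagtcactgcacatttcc
Ndufb3: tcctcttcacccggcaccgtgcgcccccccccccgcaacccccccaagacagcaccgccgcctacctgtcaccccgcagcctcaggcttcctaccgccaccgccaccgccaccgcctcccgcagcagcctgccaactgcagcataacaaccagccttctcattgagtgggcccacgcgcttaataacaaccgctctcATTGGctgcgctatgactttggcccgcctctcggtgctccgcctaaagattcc
Ndufa11: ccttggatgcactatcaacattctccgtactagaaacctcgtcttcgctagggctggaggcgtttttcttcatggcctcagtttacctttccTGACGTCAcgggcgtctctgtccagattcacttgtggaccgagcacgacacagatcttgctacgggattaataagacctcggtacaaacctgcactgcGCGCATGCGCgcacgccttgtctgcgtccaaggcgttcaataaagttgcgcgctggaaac
Ndufb4: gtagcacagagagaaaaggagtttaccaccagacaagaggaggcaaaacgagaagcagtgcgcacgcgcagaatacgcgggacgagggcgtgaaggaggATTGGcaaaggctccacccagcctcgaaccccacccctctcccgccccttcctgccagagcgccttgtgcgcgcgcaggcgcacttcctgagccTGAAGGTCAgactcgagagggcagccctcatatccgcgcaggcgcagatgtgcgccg

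Training in vehicle muscle asks how these genes respond with Bmal1 present. 0 of the 49 members passed in edgeR, as did 0.0% of all tested genes. At an unadjusted p under 0.05, 10 members were higher and 3 lower after training, against 10.5% and 4.75% of all genes. DESeq2 called 0 members too. The median log2 change was 0.15 over the members and 0.03 over all tested genes. The highest values were those of Ndufb1 (0.90, SE 0.27), Ndufb4c (0.71, SE 0.22) and Ndufa3 (0.69, SE 0.24). Ndufa3, of the proximal arm, read 105, 99.1, 98.1, 132 and 77.8 CPM before and 223, 240.4, 103, 126 and 136 CPM after training. Here samples 1 and 2 were high and the other 3 lay within or just above the sedentary range. Without sample 1 the members' median was 0.02 in place of 0.15.

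The lowest values after vehicle training were those of Ndufs1 (-0.39, SE 0.18), Ndufaf1 (-0.35, SE 0.18) and Ndufaf3 (-0.29, SE 0.12). For Ndufaf1, sample 2 stood lowest: the trained vehicle values were 27.9, 13.1, 34.0, 26.964 and 32.0 CPM, against 33.0 to 36.0 CPM in sedentary vehicle muscle. In 2 members, Ndufa4 and Ndufb11, all 5 trained samples lay above all 5 sedentary ones, as in 0.787% of all tested genes, and in 0 members did all lie below (1.08%). Ndufa4 read 605, 624, 705, 769.5 and 547 CPM in sedentary and 1169.5, 827, 772, 772 and 842 CPM in trained vehicle muscle (log2 change 0.43, SE 0.17, adjusted p = 0.280 in edgeR). These ranges nearly touched, with sample 1 far above the rest. By module, the medians were 0.20 for the N module, -0.05 for the Q module, 0.20 for the proximal arm and 0.27 for the distal arm.

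Training in knockout muscle gave log2 changes above 0 in all 49 members, with a median of 0.62 against -0.02 over all tested genes. 0 members passed in edgeR (smallest adjusted p 0.103), as did 0.0% of all tested genes, while 40 members were higher and 0 lower at an unadjusted p under 0.05, against 7.1% of all genes higher and 2.59% lower. In 28 members all 3 trained knockout samples lay above all 5 sedentary knockout samples, against 4.46% of all tested genes, and in 0 did all lie below (4.24%). DESeq2 called 28 members, all higher, where it called 1.38% of tested genes. Scaling by library totals in place of TMM moved the median of all genes to -0.15 and that of the members to 0.47. Such scaling shifts all genes of a sample alike, so the distance between these medians could hardly change and is no check on it. In edgeR the count became 16 without trained vehicle sample 2, 11 without trained vehicle sample 1 and 31 without the summed knockout pair 1 and 4. For these 3 fits the shares of all tested genes called are not given here, so the counts show only how far calls depend on single samples.

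The highest changes with training in knockout muscle were those of Ndufc1 (1.01, SE 0.24), Ndufv3 (0.99, SE 0.22) and Ndufa3 (0.97, SE 0.27), accessory subunits of the proximal arm, the N module and the proximal arm. Ndufc1 read 104, 104, 109, 94.5 and 85.1 CPM before and 120.1, 254 and 228 CPM after training (adjusted p = 0.123 in edgeR). All 3 trained samples lay above all 5 sedentary ones, the summed pair 1 and 4 only just. Ndufa1, an accessory subunit of the proximal arm named here after its values were seen, had the lowest adjusted p, 0.103 in edgeR, from 46.4, 46.2, 45.7, 48.6 and 55.025 CPM to 62.9, 99.3 and 102 CPM (log2 change 0.86, SE 0.17). Ndufs7 followed, with 118, 130.1, 120.1, 142 and 126 CPM before and 162, 210.4 and 215 CPM after training (log2 change 0.62, SE 0.13, adjusted p = 0.103 in edgeR). The lowest changes were those of Ndufs1 (0.06, SE 0.21), Ndufaf4 (0.07, SE 0.11) and Ndufaf3 (0.15, SE 0.14).

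By module the median changes with training in knockout muscle were 0.58 for the N module, 0.46 for the Q module, 0.62 for the proximal arm, 0.72 for the distal arm and 0.30 for the Nduf assembly factors. Among core subunits, Ndufs8 (0.65), Ndufv2 (0.49), Ndufs3 (0.46) and Ndufv1 (0.31) all had an unadjusted p under 0.05, unlike Ndufs1. The 46 nuclear genes of complexes II to V had a median of 0.63, all above 0, with 0 called in edgeR. The 7 subunits encoded in mitochondrial DNA had a median of 0.19, from 0.15 to 0.63. The 10 other assembly factors had a median of 0.09 and 8 above 0.

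Whether training acted differently in the 2 genotypes was tested by the interaction term. 0 of 49 members passed in edgeR (smallest adjusted p 0.604), as did 0.0% of all tested genes, and 21 members had an unadjusted p under 0.05, all with a larger change in knockout muscle, against 3.85% of all genes in that direction and 3.65% in the other. DESeq2 called 3 (Ndufs7, Ndufs3 and Ndufa9), where it called 0.181% of tested genes. The median interaction was 0.48 over the members and -0.02 over all tested genes, and 48 members lay above 0. The highest values were 0.70 for Ndufc1 (SE 0.32), 0.68 for Ndufs7 (SE 0.17) and 0.66 for Ndufa11 (SE 0.28). The lowest were -0.02 for Ndufb1 (SE 0.40), 0.06 for Ndufaf4 (SE 0.14) and 0.09 for Ndufa4 (SE 0.25). The 5 comparisons share samples, so they do not support one another.

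Transcript length moved with the samples that were high. Many complex I genes are short, with 9 members under 600 nt and 19 of at least 600 and under 1000 nt. Over all 563 tested genes under 600 nt, the median log2 level relative to sedentary vehicle muscle was 0.75 and 0.81 in trained vehicle samples 1 and 2, and 0.89 and 0.62 in trained knockout sample 2 and the summed pair 3 and 5. It was 0.04 in the summed knockout pair 1 and 4 and 0.03 in trained vehicle sample 3. The 9 members of that class stood at 0.89 and 0.52 in those 2 vehicle samples and at 1.15 and 1.04 in those 2 knockout samples. These 9 members were thus high in the samples where short transcripts in general were highest. Elsewhere the match was looser. In the summed knockout pair 1 and 4 the members stood at 0.23. In trained vehicle sample 4 they stood at 0.01, against 0.24 for all genes. From 600 to under 1000 nt, all 955 genes stood at 0.36 and the 19 members at -0.06 in trained vehicle sample 2. In trained vehicle sample 1 these values were 0.41 and 0.59, and in trained knockout sample 2 they were 0.56 and 0.93. In the summed pair 3 and 5 they were 0.40 and 0.82. The part of length in the results was not tested.

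**Figure D4:**
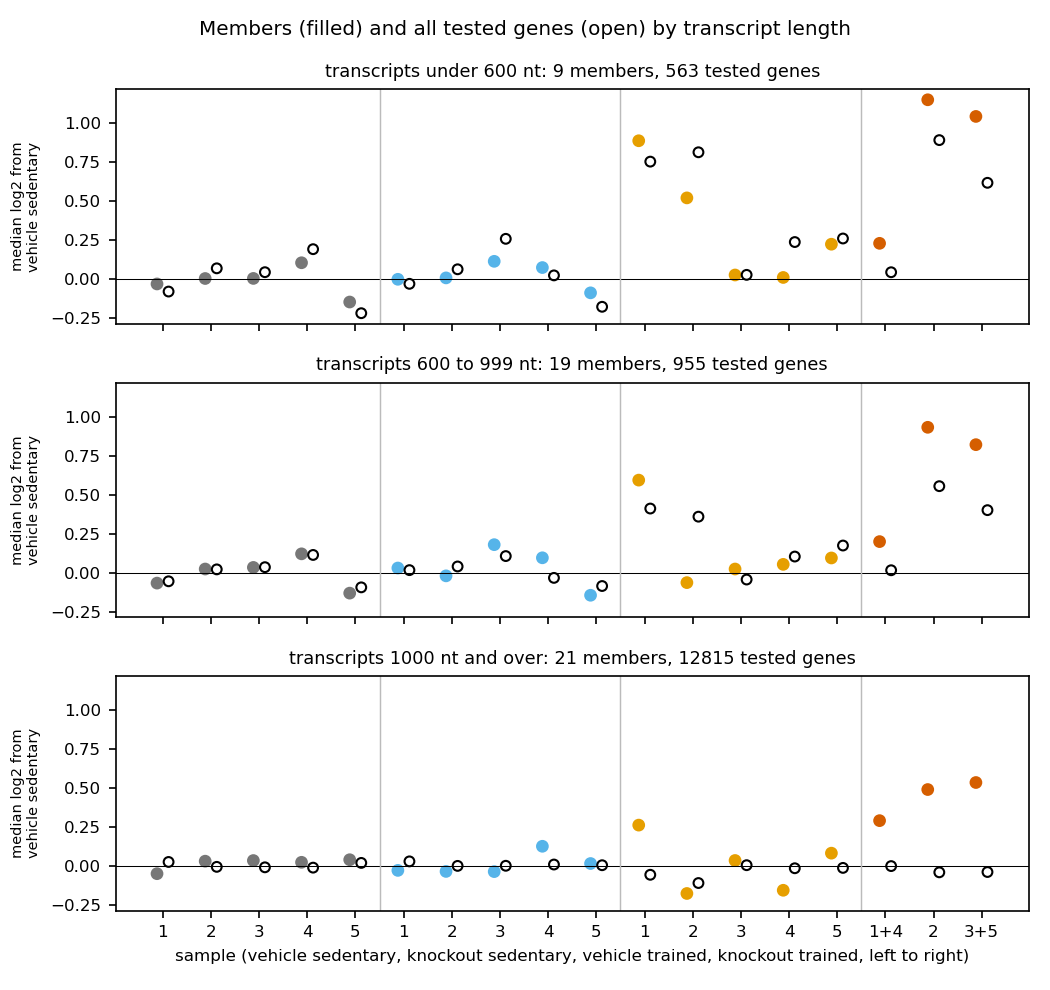
Median log2 level relative to sedentary vehicle muscle, by sample, for members (filled) and all tested genes (open) in 3 classes of transcript length. In the class under 600 nt both rise in trained vehicle samples 1 and 2 and knockout samples 2 and 3+5, while at 1000 nt and over all genes stay within 0.11 of 0 and members of the 3 trained knockout samples lie between 0.29 and 0.54.

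Among transcripts of 1000 nt and over, all 12815 tested genes had medians between -0.11 and 0.03 in every sample. The 21 members of that class stood at 0.29, 0.49 and 0.54 in the 3 trained knockout samples and at 0.26, -0.18, 0.04, -0.16 and 0.08 in the 5 trained vehicle samples. Only trained vehicle sample 1 came near the lowest of the trained knockout samples. In that class the median knockout effect in trained muscle was 0.50 for members and -0.04 for all genes, and the training effect in knockout muscle was 0.44 against -0.04. Under 600 nt, the training effect in vehicle muscle was 0.33 for members and 0.53 for all genes. An offset for the trend on length, chosen after seeing the data, left 8 members called in the trained knockout comparison, 5 of them among the 11, with a median of 0.41. It took the median training effect in knockout muscle from 0.62 to 0.27 and that in vehicle muscle from 0.15 to -0.055.

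Markers of fibre type and of other cells also differed between these samples. The 7 slow fibre markers, all of them measured, summed to 801 to 1307 CPM in sedentary vehicle, 504 to 1137 in sedentary knockout, 341 to 1276 in trained vehicle and 869 to 1308 in trained knockout muscle. In the trained comparison all 7 had log2 differences above 0 (median 0.87) and 0 passed in edgeR, 5 with an unadjusted p under 0.05. Fast fibre markers summed to 49397 to 62200, 46219 to 61609, 38583 to 54561 and 51092 to 69318 CPM in the same order of groups. The mean sums of both the slow and the fast list were thus higher in trained knockout than in trained vehicle muscle. The 5 blood markers summed to 375 to 818, 347 to 789, 558 to 2047 and 421 to 3128 CPM in the same order of groups, and their highest sums were those of trained vehicle sample 1 and trained knockout sample 2. The 6 macrophage markers summed to 46.4 to 188, 72.4 to 201, 146 to 369 and 46.2 to 289 CPM, with a median log2 difference of -0.90 in the trained comparison and 0 passing. The 6 white adipocyte markers summed to 1274 to 1722, 558 to 758, 749 to 2508 and 897 to 1272 CPM, and 1 of the 6 was lower in knockout muscle in both the sedentary and the trained comparison. Adipoq, also 1 of the 6, made up little of these sums, at 3.29 to 83.7 CPM over the samples. Its log2 difference was -0.13 (SE 0.68) in the sedentary and 0.04 (SE 0.77) in the trained comparison. With SEs this wide, Adipoq alone cannot show whether the amount of adipocytes differed. The 4 brown adipocyte markers (Ucp1, Cidea, Cox7a1 and Elovl3) summed to 93.2 to 147 CPM in sedentary vehicle, 89.6 to 143 in sedentary knockout, 138 to 280 in trained vehicle and 161 to 324 in trained knockout muscle. Cox7a1 also matches the fixed symbols used above for the nuclear genes of complexes II to V, so this sum does not read adipocytes alone. The highest sums of these 4 markers were those of trained knockout sample 2, trained vehicle sample 1 and the summed knockout pair 3 and 5. The members were high in these samples too. Of the 2 of them that were tested, both had log2 differences above 0 in the trained comparison (0.57 and 1.01), 1 with an unadjusted p under 0.05 and 0 passing in edgeR. Ucp1, the defining marker, was at 0 in 17 of 18 samples and at 1.68 CPM in the other, in sedentary vehicle muscle. The part of these cells and fibre types in the members' values was not tested.

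Some members share reads with near-identical copies, so the split between them is uncertain. Over 390 nt, the whole of Ndufb4c, Ndufb4 and Ndufb4c were 100% identical, and 65.4% to 72.0% of their summed level was listed under Ndufb4c. Their sum was 194 ± 32.4 CPM in sedentary vehicle, 204 ± 29.5 in sedentary knockout, 308 ± 91.3 in trained vehicle (SD, n = 5 each) and 358 ± 155 CPM in trained knockout muscle (SD, n = 3). Ndufa12 and its -ps copy were 99.5% identical over 402 nt, and the copy held 44.9% to 52.5% of their sum. Ndufab1 and Ndufs5 were each 99.4% identical to their -ps copies, over 469 and 319 nt, and those copies held 8.67% to 16.6% and 1.83% to 4.87%. Ndufs6 and Ndufs6b were 90.3% identical over 372 nt, and Ndufs6b held 3.27% to 7.94% of their sum. Ndufa11 and the sparse Ndufa11b were 94.8% identical over 424 nt. None of these genes was among the 11 called. Ndufa4 and Ndufa4l2, which carry the name without being subunits, differed by 0.21 (SE 0.19) and 0.61 (SE 0.23) in the trained comparison, and Ndufa4l2 read 7.04, 3.23, 6.16, 5.90 and 6.02 CPM in vehicle and 8.67, 7.69 and 9.63 CPM in knockout samples, without overlap and short of the threshold.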

How the data were processed

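RNA was sequenced from 20 muscle libraries in 4 groups of 5. The submitters' processing notes name STAR 2.7.8a, Partek and DESeq2, and both mm10 and GRCm39, without saying which build gave the table, so gene coordinates are not printed outside the promoters. The deposited table holds estimated counts per gene, not normalized: 72.6% of values are whole within 1e-09, and columns sum to different totals. Whether counting used strand is not given in the sources used here. They were rounded and tested with edgeR 4.0.16 (glmQLFit, glmQLFTest, TMM, 4 group means, two-sided, R 4.3.3), on genes with at least 1 CPM in at least 5 libraries, with Benjamini-Hochberg adjustment over 14361 genes and a threshold of 0.05. CPM in the text is after TMM scaling and SE is the absolute log2 change divided by the root of F. For each pair of libraries, squared differences over their counting expectation were compared between abundant and scarce genes: 2 of 190 pairs, with ratios of 0.873 and 1.25 against 2.31 for the next, fell under 1.5 and were summed. The script was tested on simulated counts.

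Transcript lengths came from GENCODE M21 (APPRIS principal transcripts for 46 of 49 members), promoters from RefSeq and identities from blastn 2.17.0. Motif matches are exact. Named were core subunits, the 3 highest and lowest members per comparison, the first 10 called, the 3 highest and lowest levels, assembly factors, Ndufab1, Ndufa4, Ndufa4l2, members against the median and near copies. The members and lists were chosen with earlier results of these data known. Alternatives were DESeq2 1.42.0 and its size factors, library totals with and without mitochondrial genes, no filter, all 20 libraries separate, a replicate block, the compared groups alone, each sample left out and, chosen after seeing the data, a length offset. Groups share replicate numbers. Over 30 same-numbered pairs deviations correlated from -0.34 to 0.29, with 11 over 0.1 and a median of 0.02, against -0.007 in other pairs. The numbers were therefore not used to pair samples outside the replicate block, but this does not settle whether samples of a number were handled together. 1 member is counted throughout but not reported here by name.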

Additional observations from a re-analysis of the deposited data

Results flagged for a closer look

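Over the members and their sums, 174 groups of 5 samples were examined for a sample far from the other 4, by the gap to the nearest sample over the range. Of these, 17 had one, where chance flags about 1 in 20, or 8.7. The groups are not independent, because members share samples and the sums are built from members. The 17 are therefore not a count of separate events. Trained vehicle sample 1 accounts for 10. There Ndufa4 was at 1170 CPM (772 to 841.5 in the other 4), Ndufb10 at 340.1 (197 to 228), Ndufb2 at 159.1 (87.2 to 104), Ndufb5 at 314.3 (187 to 213), Ndufb6 at 229.1 (119 to 138), Ndufb7 at 149.9 (89.2 to 104) and Ndufv3 at 158.5 (80.4 to 90.1). In the same sample the 49 members summed to 9236 CPM (6203 to 6971 in the others), the distal arm to 2916 (1722 to 1990) and the proximal arm to 1451 (938 to 1064). Short transcripts in general were high in this sample, and the part of length was not tested.

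The other 7 are scattered. Ndufaf5 was at 15.36 CPM in sedentary vehicle sample 1, below the 18.1 to 18.9 of the others. Ndufb11 was at 169.4 CPM in sedentary vehicle sample 5 (186 to 190.4 in the others) and Ndufb2 at 99.71 CPM in sedentary knockout sample 4 (90.6 to 92.4). The N module summed to 1627 CPM in sedentary vehicle sample 2 (1555 to 1562 in the others). Assembly factors without the Nduf name summed to 230.3 CPM in trained vehicle sample 2 (313 to 328 in the others). The mitochondrially encoded subunits summed to 44335 CPM in sedentary knockout sample 2 (53527 to 55164 in the others) and to 69026 CPM in sedentary vehicle sample 5 (51714 to 55101).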

How the results depend on the processing

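The 11 members called in the trained knockout comparison became 7 without a filter on low counts, 9 with library totals, 7 with library totals without mitochondrially encoded genes, 12 with the size factors of DESeq2, 19 with all 20 libraries separate, 0 with only the groups compared, 19 with DESeq2 and 8 with the length offset, which was chosen after seeing the data; leaving out each sample in turn gave 1 to 27, with 23 without the summed pair 1 and 4. Those outside 1.5 times the main count were, beside the trained samples named in the report, sedentary vehicle samples 1, 2, 3 and 5 and sedentary knockout sample 4, each 7. All of the 11 were among the 19 called by DESeq2, and Ndufs3 was called in 26 of 27 alternatives, while Ndufs7 was called in 7. For the training effect in knockout muscle, 0 called became 6 with all 20 libraries separate and 28 with DESeq2, and 0 to 31 with 1 sample left out; its median of 0.62 became 0.27 with the length offset. In sedentary muscle 0 became 1 with only the groups compared (Ndufaf5), and 0 to 1 with 1 sample left out. DESeq2 called 3 for the interaction. The median training effect in vehicle muscle turned from 0.15 to -0.055 with the length offset, and the part of length was not tested. With a replicate block, fitted on 20 separate libraries, 16 members were called in the trained knockout comparison and 0 in each of the others. With 3 trained knockout samples, leaving out 1 leaves 2. Shares of all tested genes called are not given in this section, so its counts show dependence on the processing and do not set the members apart from other genes.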
